A study of Mus musculus with 8 samples.

Results

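The replication-dependent histone genes were taken as the rows of the deposited expression table whose gene name begins with Hist1h, Hist2h, Hist3h or Hist4h, and 38 of the 11783 listed genes met this rule. The levels come from RNA-seq of granulosa cells, the somatic cells that surround the oocyte, dissociated from ovaries of C57BL/6 mice. There were 4 libraries at postnatal day 4 (PND4) and 4 at postnatal day 1 (PND1), with no treatment or altered allele named at either age. The period spans the formation of primordial follicles and the start of growth in the first of them, which is the question the series was built around. Nothing in the labels ties a library to an animal, a pool or a litter. The p-values therefore measure only how far these libraries spread, which may be technical.

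Replication-dependent histone genes encode the bulk of the histone protein made while DNA is copied, and their mRNAs accumulate in S phase and are degraded when replication ends. H2A, H2B, H3 and H4 form the core of the nucleosome, and H1 is the linker histone that binds the nucleosome where DNA enters and leaves. Most of these mRNAs end in a conserved stem-loop instead of a poly(A) tail, so the level read by RNA-seq depends on how the library was primed or selected. Use of poly(A) selection is not stated in the sources used here, and its part in the levels below was not tested.

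The 38 genes comprised 14 for H2A, 7 for H2B, 9 for H3, 4 for H4 and 4 for H1. By position, 33 belonged to the Hist1 cluster on chromosome 13, 4 to the Hist2 cluster on chromosome 3 and 1, Hist3h2a, to the Hist3 cluster on chromosome 11. The GENCODE M21 annotation on GRCm38 holds 70 genes with this name pattern, 67 of them protein coding, and those with no row were not analysed here.

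The 3′ stem-loop is shown first because it is what sets these mRNAs apart from other mRNAs. In the GENCODE M21 transcripts (GRCm38), 29 of the 38 genes had at least 16 annotated bases after the stop codon, and 24 of those held a 16-base stem-loop core with 6-base arms that pair with each other and at most 4 mismatches to the form in Hist1h2ap. That form itself was found in 15 genes of types H1, H2A, H2B and H3. The next lines give the DNA letters of the stem-loop, in capitals, with up to 5 flanking bases on each side, for the H2A genes with the highest levels and for each other form of the core.
Hist1h2ap: aaaaaGGCTCTTTTCAGAGCCatc
Hist1h2ao: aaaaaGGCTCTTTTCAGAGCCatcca
Hist1h2bb: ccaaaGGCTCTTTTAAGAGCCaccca
Hist1h3g: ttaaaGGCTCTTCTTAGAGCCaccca
Hist1h4b: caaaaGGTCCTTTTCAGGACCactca
Hist1h4i: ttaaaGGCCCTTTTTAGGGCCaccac
Hist1h4n: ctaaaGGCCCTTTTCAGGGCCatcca
The form shown for Hist1h2bb was in 4 genes of types H2B and H3, and that of Hist1h3g in 1. The H2A, H2B, H3 and H1 forms differed from each other in the loop only. The 4 H4 genes had stems of their own, found in no gene of another type. Hist1h4n and Hist1h4m shared 1 form, while Hist1h4i and Hist1h4b each had their own. The 5 genes with at least 16 annotated bases after the stop codon and no such core were Hist1h1a, Hist1h2bc, Hist1h2br, Hist2h2be and Hist2h3b. Where a core was found, it began 24 to 58 bases after the stop codon. The annotated region was only 37 bases long in Hist2h3b and 48 in Hist1h1a, and sequence beyond it was not searched. For 8 of the 24 genes, Hist1h1c, Hist1h1e, Hist1h2ae, Hist1h2bg, Hist1h3e, Hist1h3f, Hist1h4i and Hist3h2a, the annotated transcript ran more than 100 bases beyond the stem-loop. These genes were named for the annotation and not for their levels.

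Levels were low and scattered. FPKM, a read level scaled by transcript length and by the total of the library, had a median over the 8 libraries of 3.67 for the histone genes that could be tested and 9.64 for all genes tested. Of the 304 single values, 68 (22.4%) were under 1 FPKM, 8 were listed at 0 and 26 were over 10. Only Hist1h2ap and Hist1h2ao averaged over 10 FPKM, 8 genes averaged between 5 and 10, and 28 averaged less. The highest single value was 34.4 FPKM, for Hist1h2af in PND1 replicate 4. The median coefficient of variation was 65.4% among PND4 libraries and 62.1% among PND1 libraries, against 27.5% and 28.1% for all genes tested.

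**Figure D1:**
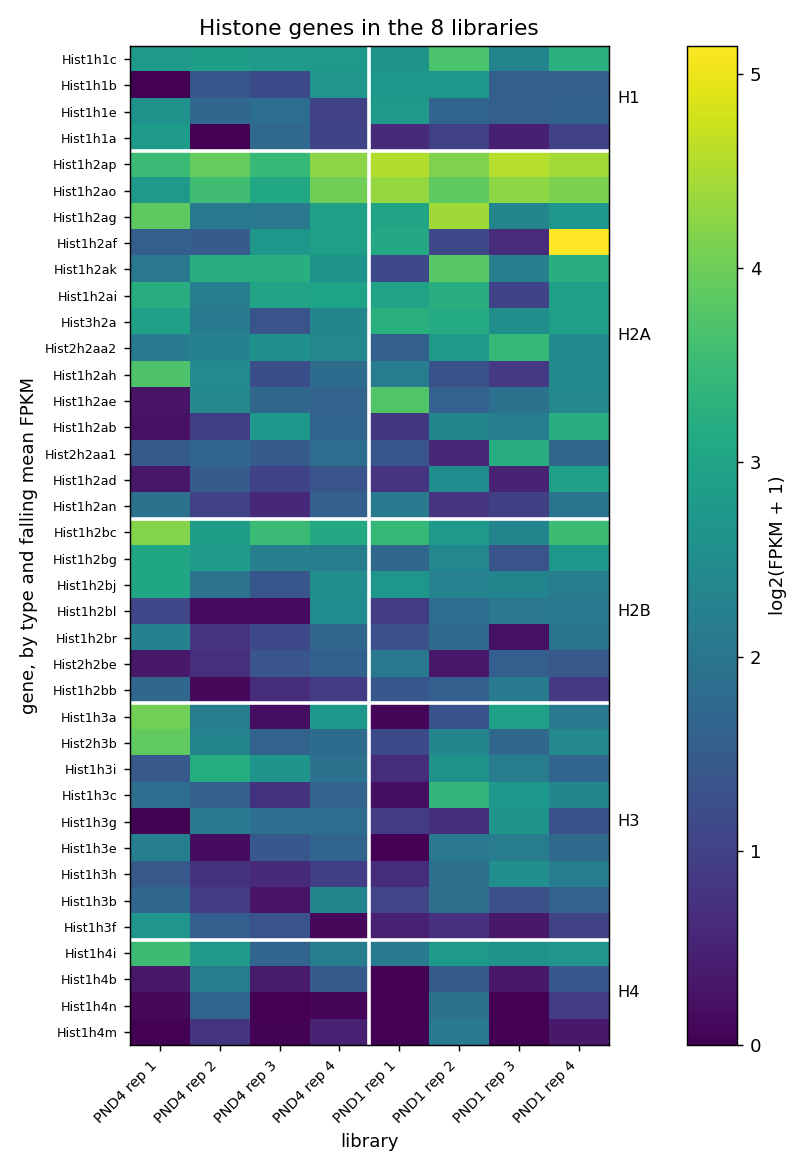
Level of each of the 38 histone genes (rows, by type and falling mean) in the 4 PND4 libraries (left) and the 4 PND1 libraries (right), as colour on the log2(FPKM + 1) scale. Hist1h2ap and Hist1h2ao are the only rows bright in most libraries, and single libraries hold the brightest cell of many others, as in Hist1h2af, which reached 34.4 FPKM in PND1 replicate 4.

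The extremes were spread unevenly over the libraries. PND4 replicate 1 held the highest value of 11 of the 38 genes and the lowest of 7, and PND1 replicate 1 held the highest of 7 and the lowest of 9. Other libraries came near these counts. PND4 replicate 3 held the lowest value of 8 genes, PND1 replicate 2 the highest of 7, and PND1 replicate 3 the highest of 6 and the lowest of 7. The 2 libraries numbered 1 listed the most genes at exactly 0 in the whole table. There were 1097 in PND4 replicate 1 and 1234 in PND1 replicate 1, against 222 to 858 in the other 6. The totals over all listed genes ranged from 443333 to 505035 FPKM per library, and the read depth is unknown.

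No histone gene passed the test between ages. The log2 difference of FPKM + 1, PND4 minus PND1, was fitted with limma on the 10756 genes that reached 1 FPKM in 4 or more libraries, which kept 35 of the 38 histone genes and left out Hist1h3f, Hist1h4n and Hist1h4m. None of the 35 had a Benjamini-Hochberg adjusted p under 0.05, and the smallest adjusted p was 0.740. Over all genes tested, 0.0093% were lower and 0.0% higher at PND4 at that threshold. At an unadjusted p under 0.05, 2 histone genes were lower at PND4, Hist1h2ap and Hist1h2ao, where 1.84% of all genes were, and 0 were higher, where 4.06% of all genes were. The estimate was below 0 for 23 histone genes (65.7%), against 39.7% of all genes, and above 0 for 12. The median log2 difference of the 35 was -0.17, against 0.08 for all genes tested. For none of the 35 were the PND4 values all below or all above the PND1 values, where 1.08% of all genes were separated with lower and 3.16% with higher PND4 values. The median 95% interval reached 1.12 to either side of the estimate for the histone genes and 0.65 for all genes, so differences of about a doubling were not detectable for a typical histone gene. In the authors' deposited table, the same 2 genes, Hist1h2ap and Hist1h2ao, had p under 0.05 in the direction of lower values at PND4, where 2.81% of its rows did. None had p under 0.05 in the other direction, where 3.74% of its rows did.

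**Figure D2:**
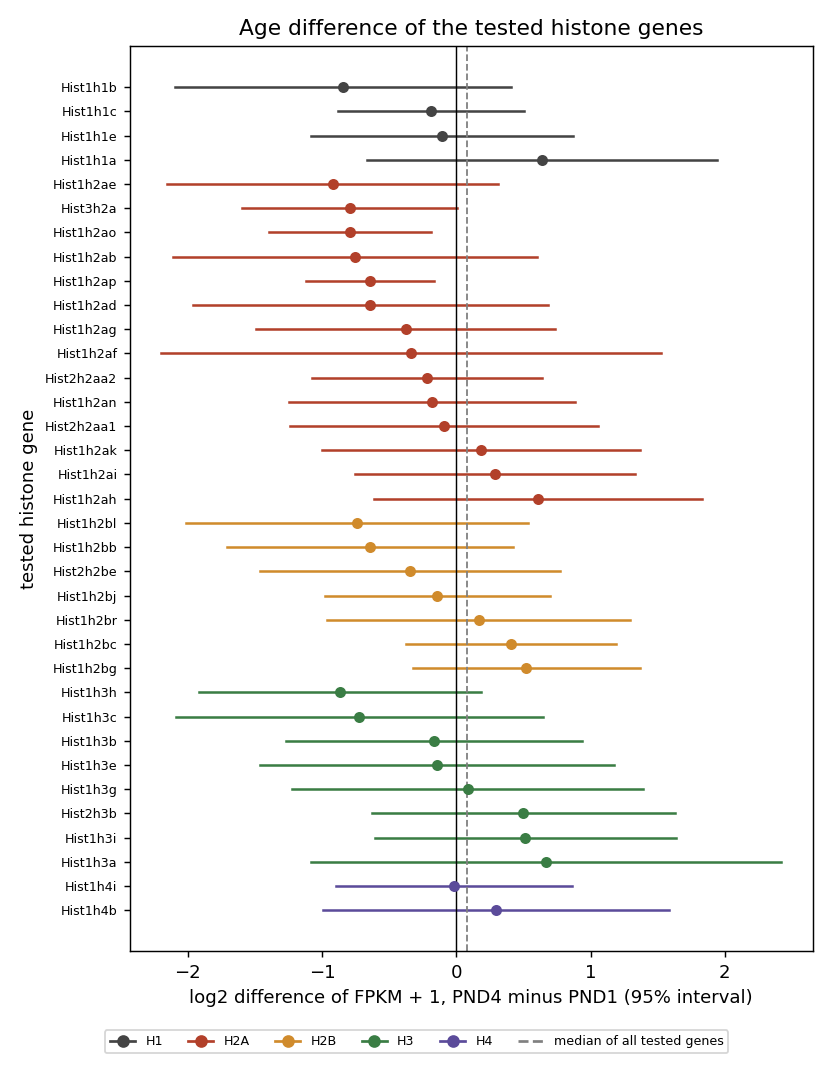
Log2 difference of FPKM + 1, PND4 minus PND1, with its 95% interval from limma for the 35 tested histone genes, by type. The intervals of Hist1h2ap and Hist1h2ao lie below 0 before any adjustment, 23 of the 35 estimates are below 0, and the dashed line marks the median of all genes tested, 0.08.

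The H2A genes held a larger share of the histone signal than any other type. Their summed FPKM was 70.2, 64.1, 60.5 and 80.2 in the 4 PND4 libraries and 97.2, 101, 82.01 and 132.1 in the 4 PND1 libraries. All 4 PND4 sums lay below all 4 PND1 sums, though the nearest were close (80.2 at PND4 and 82.01 at PND1), with means of 68.7 ± 8.61 at PND4 and 103.1 ± 20.99 at PND1 (SD, n = 4 each). H2A took 49.5% ± 7.91 of the summed histone FPKM at PND4 and 59.9% ± 5.86 at PND1 (SD, n = 4 each), and these shares overlapped between ages. Of the 14 H2A genes, all tested, 11 had lower and 3 had higher estimates at PND4, and their median log2 difference was -0.36. No test was made on the sum, since the genes were chosen with earlier results of these data known. Without the 2 libraries numbered 1, the mean sums were 68.3 FPKM at PND4 and 105 FPKM at PND1. The summed erythroid markers (3 of 5 with rows, none at 0 in every library) also separated the ages, with 0.269 to 11.4 FPKM at PND4 and 17.1 to 48.9 FPKM at PND1, as did the 7 stromal markers, with 122.4 to 156.8 FPKM at PND4 and 94.0 to 108.1 FPKM at PND1. Their part in the H2A sum was not tested.

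**Figure D3:**
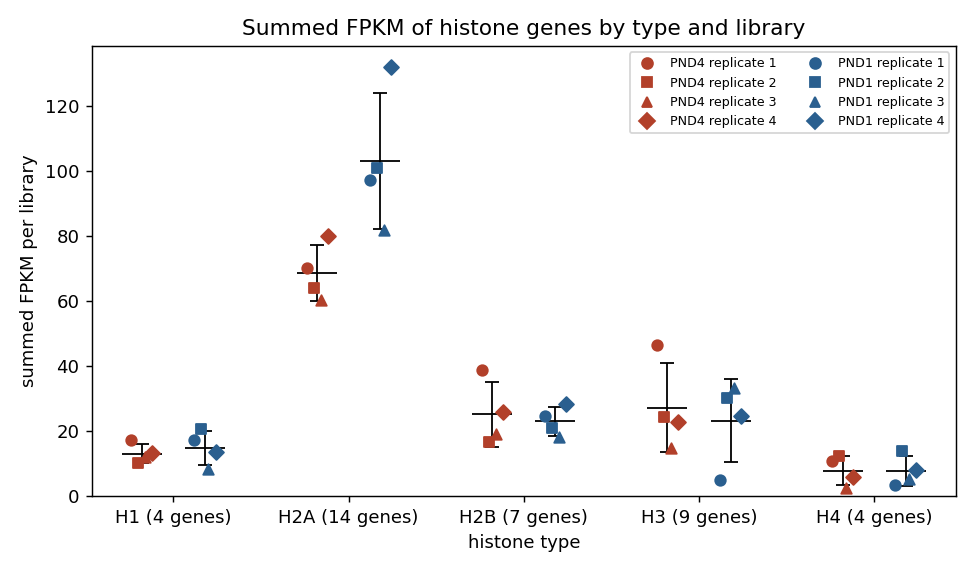
Summed FPKM of the histone genes of each type in every library, PND4 left of PND1 for each type, with the mean (long bar) and SD (capped line) of the 4 libraries of each age. The H2A sums do not overlap between ages (60.5 to 80.2 at PND4, 82.01 to 132.1 at PND1), and the sums of the other 4 types do.

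Hist1h2ap and Hist1h2ao, core H2A genes in the same part of the Hist1 cluster, had the highest levels and the smallest p-values. Hist1h2ap (ENSMUSG00000094777, 1 exon, chr13:21833026-21833507, minus strand) had 10.4, 14.2, 9.90 and 18.1 FPKM at PND4 and 22.4, 16.8, 22.8 and 20.6 FPKM at PND1. Hist1h2ao (ENSMUSG00000094248, 1 exon, chr13:21810465-21810944, plus strand) had 5.79, 10.9, 7.35 and 15.4 FPKM at PND4 and 19.0, 13.7, 18.2 and 16.6 FPKM at PND1. In both genes 3 of the 4 PND4 libraries lay below every PND1 library, and PND4 replicate 4 lay above PND1 replicate 2. The log2 difference was -0.65 for Hist1h2ap (95% interval -1.12 to -0.17, limma, adjusted p = 0.740) and -0.79 for Hist1h2ao (-1.40 to -0.18, limma, adjusted p = 0.7504). The authors' deposited table gives a fold of 1.62 for Hist1h2ap (p = 0.0266) and 1.85 for Hist1h2ao (p = 0.0302), as PND1 over PND4, both with a q-value of 0.742.

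The 2 genes are not independent measurements. Of the 50-base stretches in their transcripts, 93.1% for Hist1h2ap and 93.5% for Hist1h2ao occur in the other gene, with an unbroken common run of 452 bases, so that most reads could belong to either and how the authors' counting divided them is not stated in the sources used here. Together they summed to 23.0 ± 8.03 FPKM at PND4 and 37.5 ± 5.03 FPKM at PND1 (SD, n = 4 each), with 3 of the 4 PND4 sums below every PND1 sum. The remaining 12 H2A genes summed to 54.0, 39.0, 43.3 and 46.7 FPKM at PND4 and 55.8, 70.5, 41.0 and 94.9 FPKM at PND1, and here the ages overlapped. Their means were 45.8 ± 6.34 FPKM at PND4 and 65.5 ± 22.9 FPKM at PND1 (SD, n = 4 each). The pair shares sequence with several of these 12 genes as well. Of the 50-base stretches of Hist1h2ap, 72.3% occur in Hist1h2ag, 62.1% in Hist1h2ad and 60.3% in Hist1h2ah. The sum of the pair and that of the 12 are therefore not separate measurements.

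The promoters of this pair are printed because the genes showed alike values and their upstream sequence is shared as well. They are RefSeq windows on GRCm38.p6 from 250 bases before to 50 bases after the annotated start, chr13:21810117-21810416 on the plus strand for Hist1h2ao and chr13:21833426-21833725 on the minus strand for Hist1h2ap. Capitals mark CCAAT and its reverse complement ATTGG.
Hist1h2ao: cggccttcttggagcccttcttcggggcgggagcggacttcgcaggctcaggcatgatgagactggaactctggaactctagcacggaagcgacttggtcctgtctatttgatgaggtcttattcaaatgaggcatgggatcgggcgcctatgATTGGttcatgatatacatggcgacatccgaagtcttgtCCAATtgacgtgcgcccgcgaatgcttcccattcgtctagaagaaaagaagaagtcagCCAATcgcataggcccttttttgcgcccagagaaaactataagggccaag
Hist1h2ap: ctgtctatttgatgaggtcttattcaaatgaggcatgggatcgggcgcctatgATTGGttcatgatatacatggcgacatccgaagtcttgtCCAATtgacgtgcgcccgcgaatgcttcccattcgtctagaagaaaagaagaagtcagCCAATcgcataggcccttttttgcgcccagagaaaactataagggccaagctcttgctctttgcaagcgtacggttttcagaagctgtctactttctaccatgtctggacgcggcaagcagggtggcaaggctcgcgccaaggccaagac
The longest run common to both windows was 200 bases and held the 3 marked matches. It sits further to the left in Hist1h2ap because RefSeq places that start further into the shared sequence.

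A RefSeq promoter was found for 34 of the 38 genes and was searched on both strands for CCAAT, the letters bound by the factor NF-Y, for TATAAA, a form of the TATA box, and for ATTTGCAT, the octamer bound by Oct factors and known from H2B promoters. CCAAT was present in 30 of the 34 windows, against 37.4% of the 32544 RefSeq promoter windows of the same 300 bases. It was in all 14 H2A, 5 H2B, 7 H3 and 4 H1 windows, and in 0 of the 4 H4 windows. TATAAA was present at any position in 18 of the 34, including 3 of the 4 H4 windows, against 13.6% of all promoters. The 3 H4 matches lay 127 to 137 bases before the annotated start, and those of the 3 H1 windows 27 to 33 bases before it. The octamer was present in 6, of which 4 were H2A and 2 were H2B windows, against 1.75% of all promoters. Neighbouring genes share windows, so these counts are not independent of each other, and a match describes letters only.

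Among the other H2A genes, Hist1h2ag had 13.5, 3.25, 3.18 and 6.73 FPKM at PND4 and 6.99, 20.4, 4.11 and 5.49 FPKM at PND1. Its ages overlapped throughout, and PND1 replicate 2 alone was above the PND4 maximum (log2 difference -0.38, 95% interval -1.49 to 0.74). Hist1h2ae had 0.202, 4.37, 2.25 and 2.09 FPKM at PND4 and 12.4, 2.09, 2.78 and 4.32 FPKM at PND1. Its log2 difference, -0.92, was the lowest of the 35, and its interval ran from -2.15 to 0.31 (limma, adjusted p = 0.807). Leaving out PND1 replicate 1 gave -0.48, leaving out PND4 replicate 1 gave -0.51, and leaving out both gave -0.07. PND1 replicate 1 was high and PND4 replicate 1 was low, while the other 6 libraries were mixed. Hist1h2ah went the other way, with 12.01, 4.59, 1.36 and 2.54 FPKM at PND4 and 3.56, 1.46, 0.835 and 4.49 FPKM at PND1 (log2 difference 0.61, interval -0.62 to 1.83). That difference did not pass the test (limma, adjusted p = 0.860), and PND4 replicate 1 held its highest value.

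Hist3h2a, the only Hist3 gene with a row, is an H2A gene on chromosome 11 (chr11:58954685-58956830, plus strand, 1 exon) whose annotated transcript is longer than those of the Hist1 H2A genes. It had 6.72, 3.31, 1.51 and 4.07 FPKM at PND4 and 8.64, 8.02, 4.87 and 6.49 FPKM at PND1. The PND4 libraries other than replicate 1 all lay below the PND1 libraries. The log2 difference was -0.79 (95% interval -1.60 to 0.01, limma, adjusted p = 0.805). Of its 50-base stretches, 31.5% occur in Trim17, a protein-coding gene on the same strand that overlaps it and has no row, so reads in the shared part cannot be told apart.

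The H2A genes of the Hist2 cluster overlapped between ages. Hist2h2aa2 had 3.29, 3.81, 4.96 and 4.26 FPKM at PND4 and 1.96, 5.77, 9.85 and 4.44 FPKM at PND1, and Hist2h2aa1 had 1.76, 2.20, 1.83 and 2.63 FPKM at PND4 and 1.60, 0.482, 8.23 and 2.30 FPKM at PND1. In both, PND1 replicate 3 was the highest library. The other PND1 values of Hist2h2aa2 lay below, within and above its PND4 range, and those of Hist2h2aa1 lay within or below its PND4 range. The log2 differences were -0.22 for Hist2h2aa2 (interval -1.07 to 0.64) and -0.09 for Hist2h2aa1 (interval -1.24 to 1.05). Every 50-base stretch of these genes occurs in another annotated gene, among them overlapping antisense entries. Of the stretches of Hist2h2aa2, 100% occur in Hist2h2aa1, and 89.2% of those of Hist2h2aa1 occur in Hist2h2aa2. The 2 genes are therefore not independent measurements.

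Most H2A genes have a second entry inside them that shares their reads unless strand was used. GENCODE M21 places an entry of 138 to 144 bases, typed as miRNA, on the opposite strand inside each of the 14 H2A genes, and 12 of these entries had rows of their own. The sources used here do not state how strand was treated, and reads of gene and entry cannot be told apart. The entry Gm44466 inside Hist1h2ap had 12.4, 20.8, 12.98 and 24.5 FPKM at PND4 and 41.98, 30.1, 26.3 and 29.0 FPKM at PND1. All PND4 values of Gm44466 were below all PND1 values, and the log2 difference was -0.85 (limma, adjusted p = 0.740). Of all genes tested, 1.08% were separated in that direction. Gm19658 inside Hist1h2ao had 4.18, 19.0, 9.39 and 26 FPKM at PND4 and 29.1, 31.2, 23.2 and 26.65 FPKM at PND1, with a log2 difference of -1.12 (limma, adjusted p = 0.805). The entries also share sequence among themselves. Gm19658, Gm44359, Gm44367, Gm44394, Gm44466, Gm44484 and Gm44486 each share 89 stretches of 50 bases with both Hist1h2ao and Hist1h2ap. The counts and the sum below are therefore not of independent measurements. Of the 12 entries, 8 had lower and 4 had higher estimates at PND4, and their median log2 difference was -0.27. The highest library was the same for gene and entry in 7 of the 12 pairs. The 12 entries summed to 82.8 ± 23.4 FPKM at PND4 and 120 ± 37.8 FPKM at PND1 (SD, n = 4 each).

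**Figure D4:**
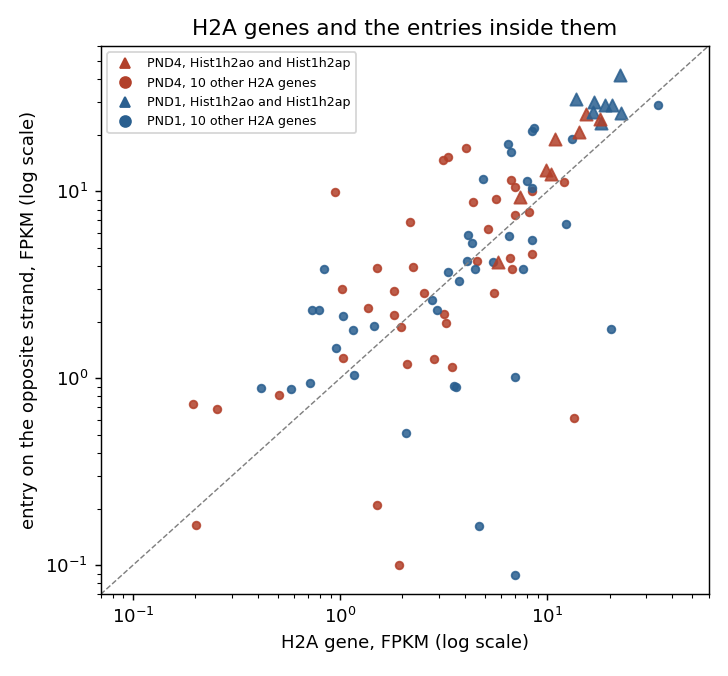
FPKM of the opposite-strand entry (vertical, log scale) against FPKM of the H2A gene that contains it (horizontal, log scale) for 12 genes in 8 libraries, with equality as a dashed line. The points of Hist1h2ao and Hist1h2ap (triangles) lie mostly above the line at both ages, and those of PND1 sit at the upper right.

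The H2B genes, partners of H2A in the nucleosome, had no common direction. Their summed FPKM was 39.0, 16.8, 19.1 and 25.8 at PND4 and 24.7, 21.04, 18.2 and 28.3 at PND1, with means of 25.2 ± 9.95 at PND4 and 23.1 ± 4.4 at PND1 (SD, n = 4 each). Of the 7 genes, 4 had lower and 3 had higher estimates at PND4. Hist1h2bc, whose annotated transcripts lack the stem-loop core, was the highest of them, with 17.2, 6.34, 10.3 and 7.64 FPKM at PND4 and 9.71, 5.80, 4.01 and 10.5 FPKM at PND1. Its log2 difference was 0.41 (interval -0.38 to 1.19, limma, adjusted p = 0.856), and the ages overlapped. Hist1h2bg had 7.20, 6.08, 3.72 and 3.52 FPKM at PND4 and 2.31, 4.25, 1.53 and 5.62 FPKM at PND1. It had the smallest p of the genes with higher estimates at PND4 (log2 difference 0.52, interval -0.32 to 1.37, limma, adjusted p = 0.835). Hist1h2bj had 7.13, 2.90, 1.60 and 4.76 FPKM at PND4 and 5.52, 3.87, 4.01 and 3.46 FPKM at PND1 (log2 difference -0.14), so its PND1 values lay within the range of its PND4 values. Hist2h2be, the H2B gene of the Hist2 cluster, had 0.281, 0.620, 1.58 and 2.04 FPKM at PND4 and 3.25, 0.258, 1.92 and 1.72 FPKM at PND1. Its values were low at both ages, and its log2 difference was -0.35 (interval -1.46 to 0.77). None of its 50-base stretches occurs in another gene, so its values cannot have been divided among copies at that length.

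H2A and H2B genes often stand head to head over a common promoter, and 4 such pairs had both genes in the table, with starts 176 to 279 bases apart. The signs of the log2 differences were alike in 1 of the 4 pairs, Hist1h2ag with Hist1h2bj (-0.38 and -0.14). Hist1h2ap had -0.65 while its neighbour Hist1h2br had 0.17, at a mean of 2.00 FPKM at PND4 and 1.72 FPKM at PND1. Hist1h2ae had -0.92 and Hist1h2bg 0.52, and Hist1h2ai had 0.29 and Hist1h2bl -0.74. None of these 8 genes passed the test.

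The H3 sums were widely scattered at both ages. Their summed FPKM was 46.7, 24.5, 14.8 and 22.9 at PND4 and 5.01, 30.2, 33.4 and 24.6 at PND1. PND4 replicate 1 held the highest and PND1 replicate 1 the lowest of the 8 sums, and the means were 27.2 ± 13.6 FPKM at PND4 and 23.3 ± 12.7 FPKM at PND1 (SD, n = 4 each). Without these 2 libraries the mean sums were 20.7 FPKM at PND4 and 29.4 FPKM at PND1, which turns the direction. Of the 8 tested H3 genes, 4 had lower and 4 had higher estimates at PND4.

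Hist1h3a, a core H3 gene, had 15.5, 3.46, 0.142 and 5.65 FPKM at PND4 and 0.0655, 1.45, 6.63 and 3.39 FPKM at PND1. Its log2 difference was 0.67 with an interval from -1.08 to 2.42, the widest range among the H3 genes described here, and each age held both high and low libraries. Hist2h3b, the H3 gene of the Hist2 cluster, had 13.8, 4.02, 2.10 and 2.52 FPKM at PND4 and 1.23, 4.08, 2.33 and 4.35 FPKM at PND1 (log2 difference 0.50, interval -0.63 to 1.63). Its higher mean at PND4 rested on replicate 1, and the other 3 PND4 libraries lay within the PND1 range. Without the 2 libraries numbered 1, the log2 difference was -0.43 for Hist1h3a and -0.24 for Hist2h3b.

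Hist1h3i had 1.69, 8.16, 5.31 and 2.77 FPKM at PND4 and 0.587, 5.21, 3.44 and 2.22 FPKM at PND1 (log2 difference 0.51, interval -0.61 to 1.64). Hist1h3h had 1.69, 0.693, 0.556 and 0.940 FPKM at PND4 and 0.587, 2.71, 4.72 and 3.499 FPKM at PND1 (log2 difference -0.87, interval -1.91 to 0.18, limma, adjusted p = 0.805). These 2 H3 genes therefore pointed in opposite directions, although neither passed the test. Their values were equal in PND4 replicate 1 and in PND1 replicate 1, to a relative tolerance of 0.0001, and differed in the other 6 libraries. Most of the 50-base stretches of each occur in another annotated gene, 87.6% for Hist1h3i and 93.9% for Hist1h3h. Each shares 79.3% of its stretches with the other, so these 2 genes are not independent measurements.

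The H4 genes had the lowest mean sum of the 5 types at both ages. Their summed FPKM was 10.9, 12.2, 2.51 and 5.77 at PND4 and 3.32, 13.9, 5.41 and 8.16 at PND1, with means of 7.86 ± 4.53 at PND4 and 7.69 ± 4.57 at PND1 (SD, n = 4 each). Hist1h4i, which shares only 28.9% of its 50-base stretches with other genes, had 10.6, 5.81, 2.19 and 3.495 FPKM at PND4 and 3.32, 6.01, 5.13 and 5.38 FPKM at PND1. Its log2 difference was -0.02 (interval -0.89 to 0.86), the value closest to 0 of the 35. Hist1h4b had 0.262, 3.56, 0.293 and 1.83 FPKM at PND4 and was listed at 0, then at 1.75, 0.279 and 1.64 FPKM at PND1 (log2 difference 0.29, interval -0.9963 to 1.59). Hist1h4n had 0.0814, 2.14, 0.0137 and 0.0544 FPKM at PND4 and 2.76 and 0.869 FPKM in PND1 replicates 2 and 4, and it was listed at 0 in PND1 replicates 1 and 3. For Hist1h4b and Hist1h4n, replicate 2 was the highest library at both ages. An exact 0 in a table without counts can be a failed estimate.

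The linker histone genes summed to 17.2, 10.1, 11.98 and 13.3 FPKM at PND4 and 17.3, 20.6, 8.26 and 13.6 FPKM at PND1, and the ages overlapped. Hist1h1c was the steadiest histone gene at PND4, with 5.78, 6.24, 5.78 and 5.81 FPKM, and had 5.30, 11.8, 3.97 and 8.56 FPKM at PND1. Its coefficient of variation was 3.82% at PND4 and 47.4% at PND1, and its log2 difference was -0.19 (interval -0.88 to 0.50). Hist1h1b was listed at 0 and then at 1.59, 1.23 and 5.42 FPKM at PND4, and had 5.65, 5.55, 1.96 and 1.96 FPKM at PND1. Its log2 difference was -0.84 (interval -2.09 to 0.41, limma, adjusted p = 0.8291). Hist1h1e had 5.22, 2.25, 2.61 and 1.01 FPKM at PND4 and 5.79, 2.22, 1.96 and 2.04 FPKM at PND1, with replicate 1 the highest at both ages (log2 difference -0.11). Hist1h1a had 6.196, 2.37 and 1.07 FPKM in PND4 replicates 1, 3 and 4, was listed at 0 in PND4 replicate 2, and had 0.554, 0.993, 0.375 and 1.01 FPKM at PND1. The estimate was 0.64 (interval -0.66 to 1.94, limma, adjusted p = 0.864), and the PND1 values all lay within the PND4 range. The H1 genes share little sequence, a median of 4.20% of 50-base stretches, against 49.7% for H2B, 60.4% for H3, 80.8% for H4 and 87.9% for H2A.

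By cluster, the 33 Hist1 genes summed to 125.3 ± 26.2 FPKM at PND4 and 151.6 ± 31.5 FPKM at PND1 (SD, n = 4 each). The 4 Hist2 genes summed to 12.9 ± 4.14 FPKM at PND4 and 13.4 ± 6.24 FPKM at PND1 (SD, n = 4 each). The Hist2 difference turned when PND4 replicate 2, PND4 replicate 3 or PND1 replicate 3 was left out. Among the 30 tested Hist1 genes 19 had lower and 11 had higher estimates, and among the 4 Hist2 genes 3 had lower and 1 had a higher estimate. The Hist1 genes lie in 3 separate stretches of chromosome 13, and the stretch of 12 genes that holds Hist1h2ao and Hist1h2ap summed to 38.7, 52.1, 41.6 and 64.1 FPKM at PND4 and 62.0, 77.4, 60.2 and 70.1 FPKM at PND1. There 3 of the 4 PND4 sums lay below every PND1 sum. The other stretches, of 4 and 17 genes, had overlapping sums. All 38 genes together summed to 184, 127.7, 108.9 and 148 FPKM at PND4 and 147.5, 186.7, 147.3 and 206.6 FPKM at PND1, with overlap between ages.

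Other genes of histone supply were listed for comparison. Replication-independent histone genes, which are expressed outside S phase and have poly(A) tails, had a median level of 54.6 FPKM over the 10 tested. The highest 3 were H3f3b, an H3.3 gene, with 227.9 ± 34.5 FPKM at PND4 and 182.1 ± 41.8 FPKM at PND1, H2afx, the H2A.X gene, whose mRNA also has a stem-loop form, with 169 ± 40.8 FPKM at PND4 and 194.2 ± 51.3 FPKM at PND1, and H2afz, the H2A.Z gene (SD, n = 4 each). H2afz had 201.3, 131.4, 163.9 and 146.1 FPKM at PND4 and 97.4, 99.8, 92.4 and 129 FPKM at PND1. Every PND4 library was above every PND1 library, narrowly (131.4 against 129 FPKM), and 3.16% of all genes tested were separated in that direction. The log2 difference of H2afz was 0.61 (interval 0.27 to 0.94, limma, adjusted p = 0.640), a direction opposite to that of the summed replication-dependent H2A genes. Of the 10 tested genes of this list, 2 (20%) had lower and 8 had higher estimates, with a median of 0.21, and 0 passed the adjusted test. Over all genes tested, 39.7% had lower estimates and the median was 0.08.

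Of 24 tested genes for histone mRNA processing, histone gene transcription and histone chaperones, 7 had lower and 17 had higher estimates, with a median log2 difference of 0.08, against 0.08 for all genes. The highest 3 were the chaperone subunits Rbbp7 (134.2 ± 11.97 FPKM at PND4, 116.2 ± 9.50 FPKM at PND1) and Rbbp4 (67.5 ± 10.4 FPKM at PND4, 63.4 ± 3.85 FPKM at PND1) and the histone acetyltransferase Hat1 (59.6 ± 13.5 FPKM at PND4, 62.4 ± 8.27 FPKM at PND1; SD, n = 4 each). Cpsf3, the nuclease that cuts histone pre-mRNA, was the only one with an unadjusted p under 0.05, a threshold that 4.06% of all genes passed with higher values at PND4. It had 33.7 ± 0.821 FPKM at PND4 and 26.9 ± 3.35 FPKM at PND1 (log2 difference 0.32, limma, adjusted p = 0.805). Slbp, the protein that binds the stem-loop, was picked after its values were seen and had 21.4 ± 5.84 FPKM at PND4 and 15.6 ± 4.06 FPKM at PND1 (SD, n = 4 each), with a log2 difference of 0.43 (limma, adjusted p = 0.805).

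Genes of S phase, the time at which these histone genes are normally active, had a median level of 25.6 FPKM, against 3.67 FPKM for the histone genes. Of the 30 tested, 9 (30%) had lower and 21 had higher estimates at PND4, where 39.7% of all genes tested had lower ones. The median log2 difference of the 30 was 0.12, against 0.08 for all genes, and none was past an unadjusted p of 0.05. Pcna, the sliding clamp of DNA polymerase, had 227.2 ± 29.0 FPKM at PND4 and 212.3 ± 8.56 FPKM at PND1, Rrm1, a ribonucleotide reductase subunit, had 138.5 ± 11.8 FPKM at PND4 and 117.1 ± 19.3 FPKM at PND1, and Mcm6, a helicase subunit, had 88.2 ± 14.4 FPKM at PND4 and 79.0 ± 4.05 FPKM at PND1 (SD, n = 4 each). Of 10 tested genes of G2 and mitosis, 2 (20%) had lower and 8 had higher estimates, with a median of 0.34, and 0 passed the adjusted test.

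The 10 granulosa markers summed to 679.7 to 899 FPKM at PND4 and 644.3 to 928.9 FPKM at PND1, with 378 to 552 FPKM of each sum from Krt18 alone. Foxl2, a more selective granulosa gene, averaged 17.6 ± 5.86 FPKM at PND4 and 15.9 ± 3.87 FPKM at PND1 (SD, n = 4 each). It was not typical of the list, where 7 of the 10 estimates were lower and 3 were higher at PND4. The log2 differences of the list had a median of -0.08, and that of Foxl2 was 0.12. Only Wnt4 separated the ages, narrowly, with 12.09 to 17.94 FPKM at PND4 and 17.96 to 23.73 FPKM at PND1, where 1.08% of all genes tested were separated in that direction. The log2 difference of Wnt4 was -0.52 (limma, adjusted p = 0.743). The 4 surface epithelium markers summed to 90.3 to 162.9 FPKM at PND4 and 46.2 to 140.9 FPKM at PND1. Of 12 oocyte markers 10 had rows, and they summed to 15.8 to 192.1 FPKM at PND4 and 10.8 to 49.2 FPKM at PND1, with the highest sum in PND4 replicate 3. The sum hides a split, since of the 8 tested oocyte markers 4 had lower and 4 had higher estimates at PND4. The log2 difference was 2.32 for Zp3 (limma, adjusted p = 0.7395), -1.775 for Figla (limma, adjusted p = 0.7395) and -1.241 for Dazl (limma, adjusted p = 0.805). The 3 of 5 leukocyte markers with rows summed to 2.92 to 57.1 FPKM at PND4 and 8.34 to 23.9 FPKM at PND1. The 2 of 5 meiotic germ cell markers with rows were split, with log2 differences of -0.85 for Sycp3 (limma, adjusted p = 0.7504) and 0.24 for Syce2. Both steroidogenic theca markers with rows, of 4 listed, had lower estimates at PND4. Their sums were 2.33 to 6.26 FPKM at PND4 and 4.71 to 12.6 FPKM at PND1. None of the 5 endothelial markers had a row. The part of other cells in the histone values was not tested, and in bulk RNA fewer cells of a type and less RNA per cell cannot be told apart.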

How the data were processed

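RNA was extracted from isolated granulosa cells with a small-sample column kit, per the labels' protocols. The submitters' processing notes name Trim Galore, HISAT2 and the build GRCm38. The authors deposited FPKM values for 8 libraries, per the file headers. They also deposited, per gene, a fold (PND1 over PND4) with its log2 value, its p-value and its q-value. The quantifier, its annotation, its use of strand, its treatment of reads with several matches, the row filter and the authors' test are not stated in the sources used here. Read depth is unknown, so no counting error is given.

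PND4 was set against PND1 with limma 3.58.1 (R 4.3.3) on log2(FPKM + 1), with a mean-dependent prior variance, no block and genes kept at 1 FPKM or more in at least 4 libraries. A difference on this scale understates the change of low genes. P-values were adjusted by Benjamini-Hochberg over 10756 genes, threshold 0.05. The fit was tested on simulated data. The genes and lists were chosen with earlier results of these data known. Single values were given for the 3 highest genes of each type, the 5 smallest p-values in each direction, and all Hist2 and Hist3 genes. Others were named for their annotation or position, or after their values were seen.

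Shared sequence was counted as 50-base stretches found in another gene's GENCODE M21 transcripts. Promoters came from RefSeq (GRCm38.p6). Alternatives changed the scaling, the filter, the pseudocount (0.1 and 5), the replicate block and the libraries. Leaving out both libraries numbered 1 was chosen after seeing the data. Figures were drawn with matplotlib 3.10.9.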

Additional observations from a re-analysis of the deposited data

Results flagged for a closer look

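The highest of 4 libraries stood apart from the other 3 in 5 of 66 groups examined, by Dixon's ratio of gap to range at the 95% level, and chance gives about 1 in 20. Hist1h1c at PND4 reached 6.24 FPKM in replicate 2, where the other 3 libraries were nearly equal. Hist1h1e at PND1 reached 5.79 FPKM in replicate 1. Hist2h3b at PND4 reached 13.8 FPKM in replicate 1, and the summed Hist2 cluster reached 19.1 FPKM in the same library. Hist1h4n at PND4 reached 2.14 FPKM in replicate 2.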

How the results depend on the processing

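The 1 gene called over the whole table, no histone gene, was also the count under 3 other scalings, 2 filters, 2 pseudocounts and the replicate block. The count was 0 to 1 when 1 library was left out, being 0 when any 1 of the 4 PND1 libraries was left out, and 0 without both libraries numbered 1. Histone genes lower at an unadjusted p under 0.05 numbered 2 to 4 when 1 library was left out, with 4 without PND4 replicate 4 and without PND1 replicate 1, and 2 or 3 otherwise. The count higher was 0 throughout. The median log2 difference of the tested histone genes ran from -0.25 to -0.10 with 1 library left out and was -0.08 at a pseudocount of 5. That of all genes, the value it is set beside, was 0.056 at a pseudocount of 5. Under upper-quartile scaling the median was -0.21 for the histone genes and 0.001 for all genes.

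Of 22 named and tested genes, 12 kept their sign in every alternative that gave a value, which was 10 to 17 of the 17 per gene, since a gene under the filter has none. With 1 library left out these ran from -0.80 to -0.53 for Hist1h2ap, -1.02 to -0.59 for Hist1h2ao, -1.05 to -0.51 for Hist3h2a, -1.25 to -0.76 for Hist1h3h, -1.23 to -0.48 for Hist1h2ae, -1.30 to -0.41 for Hist1h1b, 0.53 to 1.11 for Hist1h1a, 0.29 to 0.75 for Hist1h2bg, 0.15 to 0.59 for Hist1h2bc, 0.14 to 0.97 for Hist1h2ah, 0.14 to 0.81 for Hist1h3i and 0.03 to 0.55 for Hist1h4b. Of these 12, Hist1h1a, Hist1h3h and Hist1h4b were under 1 FPKM in 4 of the 8 libraries. Leaving out any library in which they reached 1 FPKM put them under the filter. Their ranges therefore hold only runs that kept all their higher libraries, and whether their signs hold without those was not tested. Among the other 10 the log2 difference, with 1 library left out, ran from -0.411 to 0.0449 for Hist1h1c, -0.75 to 0.0567 for Hist1h2ag, -0.41 to 0.138 for Hist1h2bj, -0.546 to 0.0776 for Hist2h2aa2, -0.385 to 0.181 for Hist1h1e, -0.35 to 0.271 for Hist1h4i and -0.477 to 0.403 for Hist2h2aa1. It was 0.0238 for Hist1h4i at a pseudocount of 5 and 0.0466 for Hist2h2aa1 at 0.1. Without both libraries numbered 1 it was -0.43 for Hist1h3a, -0.24 for Hist2h3b and 0.11 for Hist2h2be. The causes were not tested.

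The summed H2A difference, PND4 minus PND1, ran from -41.4 to -24.7 FPKM with 1 library left out. That of Hist1 ran from -37.2 to -14.3 FPKM (-14.3 without PND1 replicate 4), and that of Hist2 from -2.59 to 2.43 FPKM. The Hist2 value was 0.222 without PND4 replicate 2, 0.278 without PND4 replicate 3 and 2.43 without PND1 replicate 3. Without both libraries numbered 1 the mean sums were 20.6 FPKM at PND4 and 22.5 FPKM at PND1 for H2B, and 6.84 FPKM at PND4 and 9.14 FPKM at PND1 for H4, which turns both directions.

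With the replicate number as a block, 3 histone genes were lower at an unadjusted p under 0.05 and the median was -0.17. Deviations of same-numbered libraries correlated at 0.05, -0.01, 0.03 and 0.12 across genes, and PND4 replicate 1 correlated best with PND1 replicate 2, at 0.11, so the numbers were not taken to pair the libraries. Low FPKM, shared sequence and unknown depth and strand limit every single-gene value.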
